A study of Mus musculus with 10 samples.

Results

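The comparison set mouse plantaris muscle overloaded for 10 d under a PDGF inhibitor (PDGF is platelet-derived growth factor) against plantaris overloaded for 10 d without it. Its members were the pools whose titles give 10 days and treatment (2 pools) and those whose titles give 10 days and control (2 pools), which makes 4 of the 10 pools of the series. All mice were male C57BL/6. The plantaris, a calf muscle, was overloaded by synergist ablation, the removal of muscles that share its work. Each array carried equal amounts of RNA from 4 muscles, so the 4 pools held RNA of 16 muscles. The other 6 pools, 2 per group, came from plantaris without overload, after 3 d of overload, and after 3 d of overload with the inhibitor. The sources used here give neither the name and dose of the inhibitor nor any vehicle for the other mice. The labels leave unsaid whether both pools in a group held muscles of separate animals, and the p-values below therefore measure only the spread between these pools, which may be technical.

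PDGFs are dimeric ligands made by muscle fibres, macrophages, endothelial cells and platelets, among others. They bind the receptor tyrosine kinases Pdgfra and Pdgfrb, which in muscle are carried mainly by fibro-adipogenic progenitors, other fibroblasts and pericytes. Receptor activity drives division, migration and matrix production in these cells, and overloaded muscle adds such connective tissue while its fibres enlarge.

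Values are log2 expression values, and genes are represented by their brightest probe set. The medians of the 4 arrays lay between 2.41 and 2.44 over all probe sets. The labelled tissue was borne out by its defining markers, since the 14 fast fibre genes lay between 9.58 and 12.16 in these pools and 13 of them were above the 99th percentile of genes. Across genes, the pools without inhibitor correlated with each other at r = 0.989, the pools with inhibitor at 0.992, and pools of different treatment at 0.986 to 0.989. The pools without inhibitor were not alike in connective tissue. A list score, taken here as the median of the members' values after centring each gene on the 10 arrays, was computed per pool. For 21 interstitial matrix genes it was 0.45 in pool 1 and 1.40 in pool 2, against -0.18 and -0.23 with the inhibitor. Medians and counts of the gene lists described most fully are therefore also given without single pools, an alternative chosen after the data were seen.

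With the inhibitor, transcripts of cell division, of basement membrane and of antigen presentation were lower at 10 d, and neutrophil transcripts were higher. Of 22180 genes, 23 changed at an adjusted p under 0.05 (limma with Benjamini-Hochberg adjustment over all genes), which is 0.104% of those tested. Of these, 18 fell (0.0812%) and 5 rose (0.0225%). Their adjusted p lay between 0.0256 and 0.0498. The genes that fell included Top2a, Prc1 and Aspm of dividing cells, Lamb1 and Col15a1 of the basement membrane and the class II chain H2-Ab1. Lcn2 and Csf3r of neutrophils were among the genes that rose. At an unadjusted p under 0.05, 1386 genes lay lower (6.25%) and 966 higher (4.36%), and these shares are the background for the lists below. The median change over all genes was 0.01 on the log2 scale, and the middle 50% lay between -0.17 and 0.17. The number called depended on the pools. It was 180, with 171 lower, without pool 1 of 10 d overload, and 19 of the 23 were among them. It was 0 without pool 2 of 10 d overload, where 1939 genes had an unadjusted p under 0.05. It was also 0 without pool 2 of the inhibitor (1883 at an unadjusted p under 0.05) and without either 3 d inhibitor pool (2301), 1 without pool 1 of the inhibitor, and 2 without either pool of unloaded muscle, all by limma. The direction of the 23 could not change in these fits, since their 10 d groups do not overlap. In bulk RNA, fewer cells of a type and less RNA per cell cannot be told apart.

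**Figure D1:**
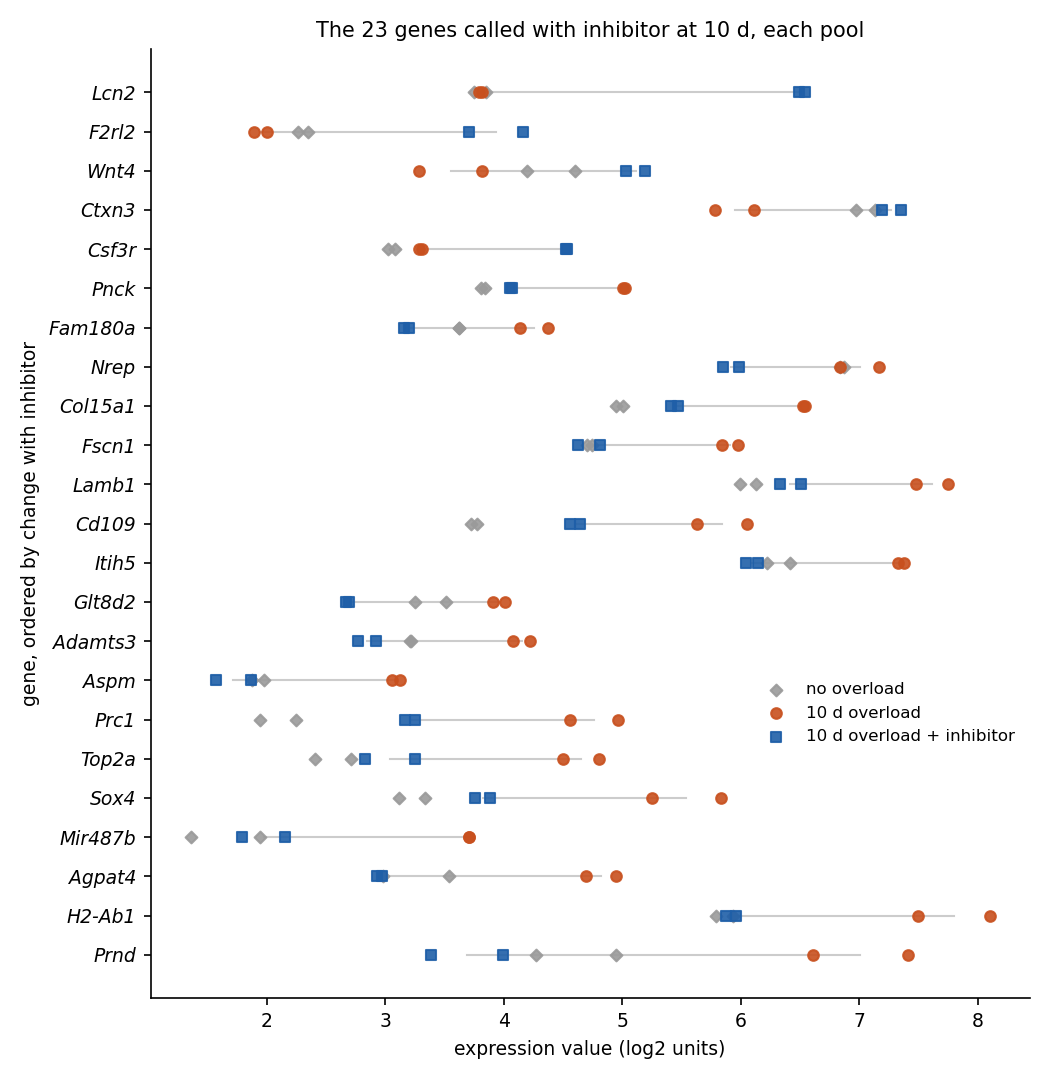
Expression values (log2 units, horizontal axis) of the 23 called genes in each pool without overload (grey), with 10 d of overload (orange) and with 10 d of overload and the inhibitor (blue); the thin line joins the means of the 10 d groups. The 10 d groups do not overlap for any of the 23 genes, which the inhibitor lowered from Pnck down to Prnd and raised from Csf3r up to Lcn2.

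Genes of cell division made up 3 of the falls. Top2a, the topoisomerase that untangles chromosomes, was at 4.50 and 4.80 with overload alone and at 3.25 and 2.83 with the inhibitor. It fell 3.07-fold (log2 change -1.62 ± 0.19 SE, adjusted p = 0.0371 by limma). Its pools with inhibitor stayed above the unloaded pools, at 2.41 and 2.71. Prc1, which bundles microtubules of the spindle midzone, was at 4.97 and 4.55 without and at 3.25 and 3.16 with the inhibitor. It fell 2.94-fold (adjusted p = 0.0371 by limma) and also stayed above its unloaded level of 1.94 and 2.25. Aspm, a spindle pole protein, was at 3.06 and 3.13 without and at 1.57 and 1.86 with the inhibitor, a 2.60-fold fall (adjusted p = 0.0256 by limma). Its pools with inhibitor lay below both unloaded pools (1.97 and 1.87), pool 2 only slightly.

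The promoters of these 3 genes, and that of the class II gene H2-Aa described below, are shown because their groups of genes moved together and because the CCAAT box, a site bound by the factor NF-Y in many cell cycle and class II promoters, recurs in them. Each line gives the 250 bases before the RefSeq transcription start (GRCm38.p6), 5′ to 3′ on the gene's strand. Capitals mark CCAAT on either strand (read as ATTGG on the other), and in the cell division genes also the CHR letters TTTGAA on either strand (TTCAAA).

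Top2a, chr11:99024190-99024439, minus strand: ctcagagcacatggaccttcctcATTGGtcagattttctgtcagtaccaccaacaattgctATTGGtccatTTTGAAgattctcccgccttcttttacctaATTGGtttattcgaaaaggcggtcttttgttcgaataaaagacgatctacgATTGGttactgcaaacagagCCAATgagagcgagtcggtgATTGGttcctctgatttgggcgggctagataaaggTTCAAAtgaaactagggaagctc

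Prc1, chr7:80294201-80294450, plus strand: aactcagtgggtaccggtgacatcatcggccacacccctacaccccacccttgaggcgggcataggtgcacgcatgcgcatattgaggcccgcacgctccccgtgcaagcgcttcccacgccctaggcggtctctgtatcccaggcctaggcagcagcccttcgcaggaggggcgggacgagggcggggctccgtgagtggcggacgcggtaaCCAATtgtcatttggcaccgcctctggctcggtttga

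Aspm, chr1:139454523-139454772, plus strand: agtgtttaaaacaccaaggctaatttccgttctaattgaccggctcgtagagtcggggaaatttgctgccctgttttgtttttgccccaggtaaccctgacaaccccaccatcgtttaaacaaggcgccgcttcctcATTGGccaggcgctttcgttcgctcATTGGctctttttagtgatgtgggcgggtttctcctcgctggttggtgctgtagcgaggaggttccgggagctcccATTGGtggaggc

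H2-Aa, chr17:34287824-34288073, minus strand: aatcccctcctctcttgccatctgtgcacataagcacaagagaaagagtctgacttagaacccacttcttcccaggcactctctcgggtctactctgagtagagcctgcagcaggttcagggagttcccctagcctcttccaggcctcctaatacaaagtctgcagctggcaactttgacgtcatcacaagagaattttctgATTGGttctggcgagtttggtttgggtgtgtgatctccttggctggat

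Top2a held 6 copies of CCAAT and 2 of TTTGAA, Aspm held 3 copies of CCAAT, and Prc1 and H2-Aa held 1 each. Of the 25 measured genes of the cell cycle list, 22 had a promoter sequence and 18 of these held CCAAT (81.8%), against 6051 of the 16990 promoters of all genes (35.6%). The letters TTTGAA were in 6 of the 22 (27.3%), against 14.2% of all. Other motifs were scanned too, and the GC box letters GGGCGG were in 17 of the 22 (77.3%), against 43.2% of all. CCAAT was in 7 of 12 promoters of genes that fell (58.3%), in 4 of 5 of the class II list and in 4 of 14 of the interstitial matrix list (28.6%). It was in 0 of 4 promoters of called genes that rose and in 5 of 12 of the neutrophil list (41.7%). A match describes the letters and not a bound site.

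Of the 25 measured members of the cell cycle list (27 listed), Top2a was the one that passed the adjusted test. The log2 change was negative for 23 and positive for 2, with 15 lower at an unadjusted p under 0.05 and none higher. Their median log2 change was -0.835. Ccnb2, the mitotic cyclin B2, was at 5.36 and 5.39 without and at 4.19 and 3.62 with the inhibitor (log2 change -1.47 ± 0.20, adjusted p = 0.0575 by limma). Mki67, which marks cycling cells, was at 5.62 and 5.66 without and at 4.55 and 3.83 with it (-1.46 ± 0.22, adjusted p = 0.0719 by limma). In both genes, pool 2 with inhibitor was the lowest of the overloaded pools and still above unloaded muscle, which lay between 2.47 and 2.68. Kif23, a kinesin of cytokinesis, differed by -1.25. The summed linear level of the list was 570.1 and 580.1 without and 387.7 and 366.6 with the inhibitor, against 300.7 and 281.5 in unloaded muscle, so the groups did not overlap. The median stayed between -0.81 and -0.66 when either overload pool was left out, with 15 and 13 members lower. At 3 d of overload, in pools this comparison does not use, 16 members lay lower with the inhibitor and the median was -0.89.

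Basement membrane genes, which encode the laminins, nidogens and collagens of the sheet around fibres and vessels, gave 2 of the genes called. Lamb1, the laminin beta-1 chain, was at 7.48 and 7.75 without and at 6.51 and 6.33 with the inhibitor, a 2.29-fold fall (log2 change -1.20 ± 0.16, adjusted p = 0.0459 by limma). Col15a1, a collagen that links basement membrane to the fibrils outside it, was at 6.53 and 6.54 without and at 5.41 and 5.47 with it, a 2.13-fold fall (adjusted p = 0.0417 by limma). Pools of one treatment were close to each other in both genes, and those with inhibitor lay slightly above unloaded muscle, at 5.99 and 6.13 for Lamb1 and a mean of 4.97 for Col15a1. Of the 14 members, 11 lay lower at an unadjusted p under 0.05 and none higher, with a median of -0.69. Nid2, Nid1 and Lama2 differed by -0.85, -0.83 and -0.66, and Col4a1, of the collagen network of the sheet, was at 7.19 and 7.14 without and at 6.29 and 6.03 with the inhibitor. Here the unequal overload pools mattered little, since the median was -0.62 without pool 2 and -0.74 without pool 1. Against unloaded muscle, 11 of the 14 rose with overload alone (limma, 3.90% of all genes rose). With overload and inhibitor 0 of the 14 were called (1.13% of all genes rose). At an unadjusted p under 0.05, 4 lay higher, against 7.6% of all genes. These comparisons share pools with that of the inhibitor. At 3 d the median inhibitor difference was -0.15, with 1 member lower at an unadjusted p under 0.05, against 4.48% of all genes.

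Interstitial matrix genes showed larger differences, with more spread between the pools without inhibitor. Of the 21 measured members (22 listed), 17 lay lower at an unadjusted p under 0.05 and none higher, with a median of -1.14, but none was called. Col1a2, a chain of type I collagen, was at 9.97 and 10.91 without and at 8.97 and 9.11 with the inhibitor (log2 change -1.40 ± 0.26, adjusted p = 0.132 by limma). Col6a2, of the type VI microfibrils, was at 7.86 and 8.45 without and at 6.77 and 6.87 with it (-1.34 ± 0.22, adjusted p = 0.109 by limma). Tnc, tenascin C of growing and injured tissue, was at 7.06 and 8.27 without and at 6.00 and 6.08 with it (-1.63 ± 0.32, adjusted p = 0.139 by limma). In all 3 genes the groups did not overlap, and pool 2 of overload alone was the highest. The summed linear level was 8751 and 16820 without and 5756 and 5452 with the inhibitor, and 2029 and 2198 in unloaded muscle. Without pool 2 of overload the median was -0.66 with 14 members lower, and without pool 1 it was -1.63 with 20. In the side by side comparisons with unloaded muscle, which share these pools, 19 of 21 rose with overload alone (median 2.45) and 7 of 21 with overload and inhibitor (median 1.23), by limma, against 3.90% and 1.13% of all genes. At an unadjusted p under 0.05, 20 of 21 were higher in each, against 10.6% of all genes with overload alone and 7.6% with overload and inhibitor.

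The genes that process and trim matrix followed. Adamts3, which removes the amino-terminal propeptide of procollagens, was at 4.08 and 4.22 without and at 2.92 and 2.77 with the inhibitor, and fell by 1.31 on the log2 scale (± 0.14, adjusted p = 0.0256 by limma). Its pools with inhibitor lay below both unloaded pools (3.21 and 3.21). Of 15 measured genes of collagen processing and cross-linking (18 listed), 8 lay lower at an unadjusted p under 0.05, with a median of -0.63. They included Pcolce (-0.74), an enhancer of procollagen cleavage, Serpinh1 (-0.92), the collagen chaperone, and Adamts14 (-1.11). Of 17 matrix proteases and inhibitors, 7 lay lower and the median was -0.48, with Mmp2 at -0.98, Mmp14 at -1.32 and the collagen-degrading cathepsin Ctsk at -1.42. Of 11 small leucine-rich proteoglycans, which bind collagen fibrils, 6 lay lower, with a median of -0.67. Lum, lumican, differed by -1.02 and Aspn, asporin, by -1.21. These 3 lists leaned on pool 2 of overload, since without it their medians were -0.18, -0.20 and -0.27, with 5, 4 and 3 members lower. Without pool 1 they were -0.93, -0.91 and -0.93, with 10, 12 and 8 members lower. The proteoglycan list also had 3 lower without inhibitor pool 1.

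Markers of the cells that carry PDGF receptors were lower as well, without a call. Among fibroblast and fibro-adipogenic progenitor markers, all 16 measured members (18 listed) had a negative difference and 11 had an unadjusted p under 0.05, with a median of -0.59. Cd34, a surface sialomucin of progenitors, was at 8.57 and 8.72 without and at 8.03 and 8.06 with the inhibitor. Thy1 was at 6.21 and 7.02 without and at 5.69 and 5.45 with it. The groups were apart for both genes, with log2 differences of -0.60 ± 0.13 for Cd34 (adjusted p = 0.158) and -1.04 ± 0.25 for Thy1 (adjusted p = 0.192, both by limma). The median was -0.45 without pool 2 of overload, with 6 members lower. Among 11 tendon lineage genes all differences were negative and 8 had an unadjusted p under 0.05, with a median of -0.74. Tnmd, the tendon protein tenomodulin, was at 8.03 and 9.12 without and at 6.04 and 6.86 with the inhibitor, against 5.89 and 6.00 in unloaded muscle (-2.13 ± 0.38, adjusted p = 0.128 by limma). Col11a1, a collagen that seeds thin fibrils, and Mkx, a tendon transcription factor, differed by -1.97 and -1.22. Pericyte and smooth muscle markers and endothelial markers differed less, with medians of -0.20 over 14 and -0.16 over 16 members. The share of these cell types in each pool was not measured, and its part in the matrix values was not tested.

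**Figure D2:**
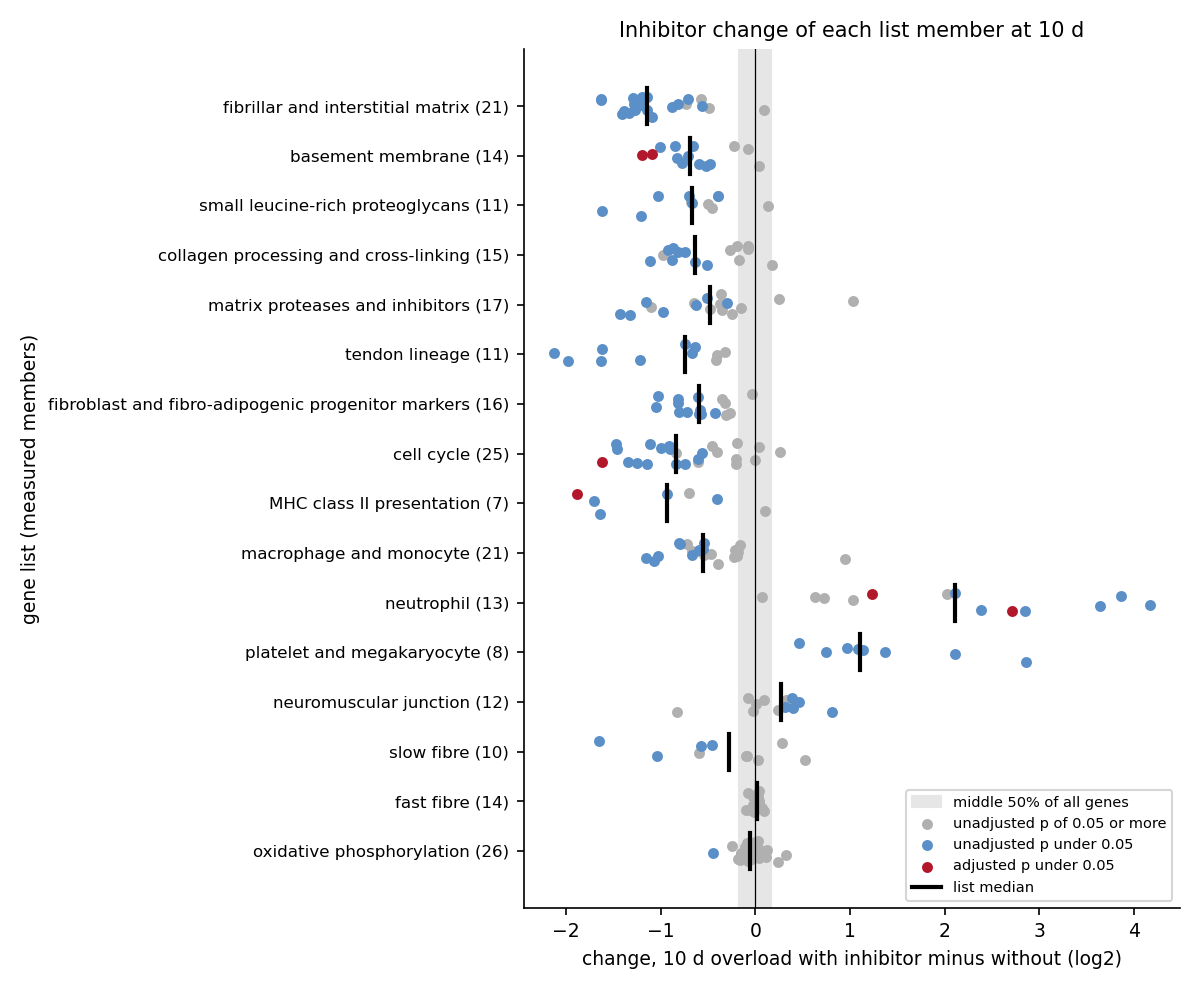
Log2 difference, inhibitor minus none at 10 d (horizontal axis), of each measured member of 16 gene lists; red points passed the adjusted test, blue points had an unadjusted p under 0.05, black bars are list medians and the grey band is the middle 50% of all genes (-0.17 to 0.17). Matrix, fibroblast, tendon, cell cycle and class II lists sit left of the band, neutrophil and platelet lists sit right of it, and fast fibre and oxidative phosphorylation lists lie around 0.

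The PDGF genes themselves gave no call. Pdgfra, the receptor of progenitors and fibroblasts, was at 7.94 and 8.32 without and at 7.45 and 7.66 with the inhibitor (log2 change -0.57 ± 0.16, adjusted p = 0.250 by limma). Pdgfrb, the receptor of pericytes and fibroblasts, was at 7.68 and 7.98 without and at 7.46 and 7.41 with it (-0.39 ± 0.16, adjusted p = 0.430 by limma). Both receptors were lower in each pool with inhibitor, but without pool 2 of overload, or without inhibitor pool 1, neither kept an unadjusted p under 0.05. Without inhibitor pool 2, or either 3 d inhibitor pool, 1 PDGF gene was lower by that measure, and without pool 1 of overload there were 4. Of the ligands, Pdgfb was at 7.03 and 6.65 without and at 7.42 and 6.93 with the inhibitor, and Pdgfc at 5.12 and 6.15 without and 5.16 and 5.44 with it, so that the groups overlapped for both. Pdgfd differed by -0.26 ± 0.17 and Pdgfa by -0.06 ± 0.15. Pdgfc turned to 0.18 without pool 2 of overload, and Pdgfa to 0.018 when all arrays were set to a common median. None of the 17 measured adaptors and kinases that relay the receptor signal (22 listed) had an unadjusted p under 0.05. Among 18 measured immediate early factors, which growth factors induce within minutes, 3 lay lower. They were Egr1 (-0.74), Jund (-0.40) and Fosb (-1.25). A second, dimmer probe set of Jund went the other way, by 0.50 (unadjusted p = 0.0428 by limma). Without pool 2 of overload 1 early factor was lower by that measure, and without inhibitor pool 2 there were 0. At 3 d, Egr1 differed by 0.58 and Fosb by 0.99 in the other direction. Of 15 feedback inhibitors and targets of the ERK pathway, the phosphatase Dusp7 (-0.47) and Spred1 (-0.39) lay lower and the factor Etv5 (0.63) higher at an unadjusted p under 0.05. Without pool 2 of overload, or without inhibitor pool 1, 0 of the 15 passed that measure in either direction (limma).

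Antigen presentation genes lay near their unloaded level with the inhibitor, and 1 of them was called. H2-Ab1, the beta chain of a class II molecule that shows peptides to helper T cells, was at 7.50 and 8.10 without and at 5.87 and 5.96 with the inhibitor, a 3.69-fold fall (log2 change -1.88 ± 0.20, adjusted p = 0.0256 by limma). The pools with inhibitor overlapped unloaded muscle, which had 5.93 and 5.79. Its partner chain H2-Aa was at 5.96 and 6.73 without and at 4.57 and 4.71 with the inhibitor, and H2-Eb1 at 6.74 and 7.40 without and at 5.41 and 5.44 with it. They differed by -1.71 ± 0.25 (adjusted p = 0.0719) and -1.64 ± 0.25 (adjusted p = 0.0764, both by limma). Of 7 measured members of the list (8 listed), 5 lay lower at an unadjusted p under 0.05, with a median of -0.94, and the median was -0.86 without pool 2 of overload. Their summed linear level was 375.7 and 587.2 without and 144.3 and 150.8 with the inhibitor, and 146.1 and 133.8 in unloaded muscle. At 3 d the same list had a median of -0.67 and 5 members lower at an unadjusted p under 0.05, against 4.48% of all genes.

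Macrophage markers were lower by less, and this rested on 1 pool. Of 21 members, 9 lay lower at an unadjusted p under 0.05, with a median of -0.56. Trem2, a lipid receptor of macrophages, was at 3.69 and 4.62 without and at 3.36 and 2.88 with the inhibitor. Csf1r, the receptor for the macrophage growth factor, was at 6.64 and 7.17 without and at 6.08 and 6.14 with it (-0.80 ± 0.26, adjusted p = 0.305 by limma). Without pool 2 of overload 0 members were lower at an unadjusted p under 0.05 and the median was -0.27, while without pool 1 there were 17 and it was -0.85. Without either inhibitor pool there were 5. The 13 measured T and NK cell markers included none with an unadjusted p under 0.05. Among mast cell markers, Kit, which also marks other progenitors, was at 4.13 and 4.34 without and at 3.04 and 2.21 with the inhibitor (-1.61 ± 0.27, adjusted p = 0.101 by limma), and the mast cell protease Cpa3 differed by -0.57 (adjusted p = 0.547 by limma). Of the 8 mast cell markers 4 were lower and 4 higher in sign, with a median of 0.03, and Kit was the one with an unadjusted p under 0.05.

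Neutrophil transcripts were higher with the inhibitor at 10 d. Lcn2, the iron-withholding lipocalin of neutrophil granules, was at 3.81 and 3.79 without and at 6.49 and 6.54 with the inhibitor. It rose 6.57-fold (log2 change 2.72 ± 0.31, adjusted p = 0.0303 by limma), while unloaded muscle (3.75 and 3.85) matched overload alone. Csf3r, the receptor for granulocyte colony-stimulating factor, was at 3.29 and 3.31 without and at 4.54 and 4.53 with the inhibitor, and rose 2.35-fold (1.23 ± 0.13, adjusted p = 0.0256 by limma). Of 13 measured members (14 listed), 8 lay higher at an unadjusted p under 0.05 and none lower, with a median of 2.11. The groups did not overlap for 12 of the 13, against 21.6% of all genes. S100a8, the cytosolic calcium-binding protein most abundant in neutrophils, was at 0.86 and 0.93 without and at 4.72 and 4.78 with the inhibitor (3.86 ± 0.83, adjusted p = 0.167 by limma). Retnlg was at 2.03 and 1.09 without and at 6.07 and 5.38 with it, and the chemokine receptor Cxcr2 at 1.24 and 0.82 without and 3.87 and 3.89 with it (2.85 ± 0.46, adjusted p = 0.0990 by limma). The 3 d overload pools, which enter the shared estimate of spread, differed from each other in these genes. The list's summed linear level was 554.8 and 130.4 there, 65.9 and 63.3 at 10 d of overload, 357.5 and 298.7 at 10 d with the inhibitor, 325.6 and 246.8 at 3 d with the inhibitor, and 70.2 and 66.3 without overload. The 6 markers of granulocyte precursors summed to 18.6 and 14.1 without and 19.9 and 17.9 with the inhibitor, and to 107.6 and 15.9 at 3 d of overload. Their median log2 change at 10 d was 0.37, 4 of 6 were higher without overlap, and none had an unadjusted p under 0.05, with Elane at 1.05 and 1.01 against 1.75 and 1.33 and Mpo at 1.37 and 1.22 against 1.62 and 1.75. Leaving out inhibitor pool 1 or 2 gave medians of 1.75 and 2.59 for the neutrophil list, with 6 and 8 members higher.

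Platelet genes moved in the same direction, with none called. All 8 measured members (11 listed) lay higher at an unadjusted p under 0.05, with a median of 1.11. They include Vwf, which is also in the endothelial list. Ppbp, a chemokine of platelet granules, was at 5.99 and 6.27 without and at 9.54 and 8.44 with the inhibitor, against 7.65 and 7.29 in unloaded muscle (2.86 ± 0.52, adjusted p = 0.128 by limma). Pf4, platelet factor 4, was at 4.35 and 4.62 without and at 5.45 and 5.46 with it (0.97 ± 0.17, adjusted p = 0.128 by limma). Gp9, of the von Willebrand factor receptor, and Gp6, the collagen receptor, differed by 2.11 and 1.37. The median was 0.72 with 5 members higher without inhibitor pool 1, in which the list's summed level was 1054, against 529.8 in pool 2 and 170.7 and 183.4 without the inhibitor. F2rl2, a thrombin receptor that platelets carry, was called. Its mean was 1.95 without the inhibitor, its pools were at 4.16 and 3.70 with it, and it rose 3.96-fold (1.99 ± 0.20, adjusted p = 0.0256 by limma). Of 7 measured red cell genes (17 listed), 3 lay higher and 1 lower at an unadjusted p under 0.05, and 1 higher without inhibitor pool 1. Slc4a1, the anion exchanger of red cells, was at 3.04 and 1.55 without and at 6.16 and 5.15 with the inhibitor (3.36 ± 0.88, adjusted p = 0.219 by limma). The amount of blood left in the muscles was not measured, and its part in these values was not tested.

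**Figure D3:**
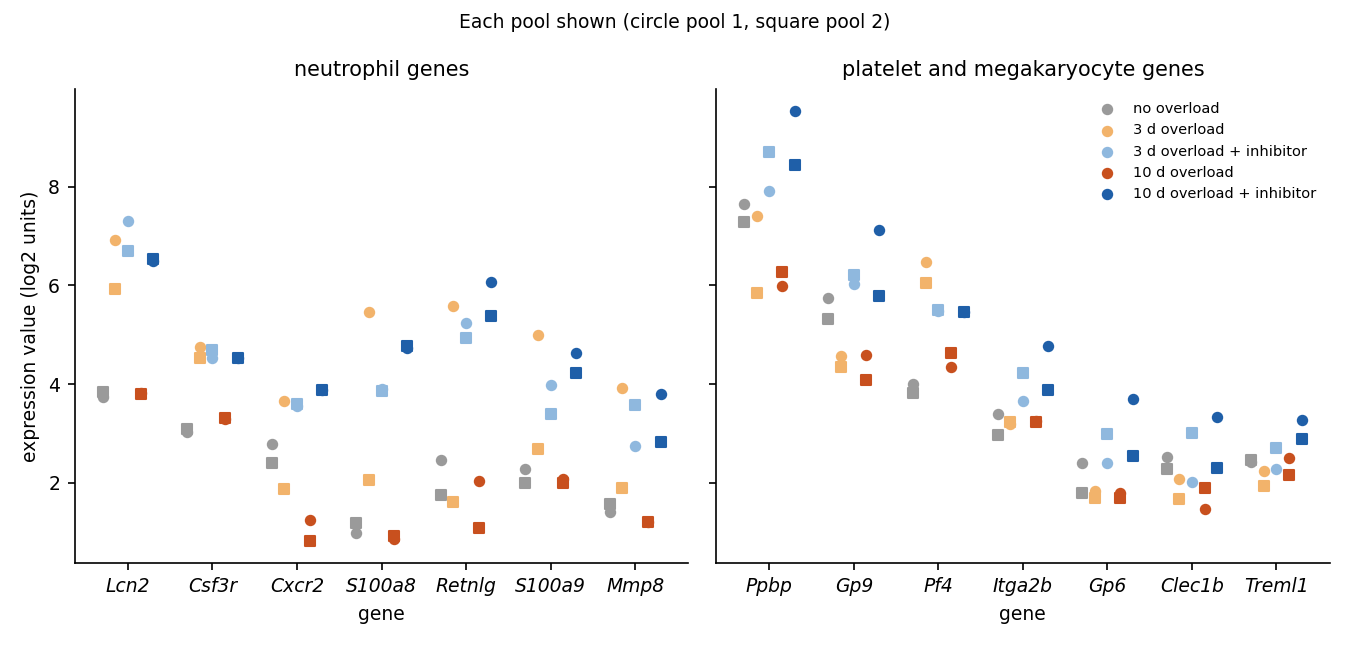
Expression values (log2 units, vertical axis) of 7 neutrophil genes (left) and 7 platelet and megakaryocyte genes (right) in every pool, coloured by group, with circles for pool 1 and squares for pool 2. The 10 d inhibitor pools (dark blue) lie above the 10 d overload pools (dark orange) for all 14 genes, and pool 1 of 3 d overload lies above its partner for the neutrophil genes.

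Further genes were called outside these groups. Prnd, which encodes the prion-like protein doppel, had the largest fall. It was at 7.42 and 6.61 without and at 3.99 and 3.39 with the inhibitor, a 9.98-fold difference (log2 change -3.32 ± 0.32, adjusted p = 0.0256 by limma), and unloaded muscle had 4.27 and 4.95. A second, dimmer probe set of Prnd differed by 0.12. Sox4, a transcription factor of progenitor cells, was at 5.25 and 5.83 without and at 3.88 and 3.76 with the inhibitor, and fell by 1.72 (± 0.21, adjusted p = 0.0371 by limma), with its dimmer second probe set at -0.01. Agpat4, an acyltransferase of phospholipid synthesis, was at 4.70 and 4.95 without and at 2.93 and 2.97 with it, and fell by 1.87 (adjusted p = 0.0256 by limma). Itih5, a hyaluronan-binding protein, and Cd109, a co-receptor that restrains TGF-beta signalling, fell by 1.26 and 1.24 (adjusted p = 0.0256 and 0.0417 by limma). Glt8d2, a putative glycosyltransferase, fell by 1.28 (adjusted p = 0.0256 by limma). The pools of each treatment lay within 0.5 of each other in Agpat4, Itih5, Cd109 and Glt8d2.

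The other falls were Fscn1, an actin-bundling protein, by 1.19, Nrep by 1.09, Fam180a by 1.08 and the calmodulin-dependent kinase Pnck by 0.96, with adjusted p of 0.0417, 0.0498, 0.0417 and 0.0417 by limma. These 4 and Mir487b lay outside the naming rule and were chosen after their values were seen. Col15a1 lay outside the 12 largest falls and was named as a list member by p. Mir487b is a microRNA gene of the imprinted Dlk1-Dio3 region of chromosome 12. Its probe set was at 3.70 in both pools without and at 2.15 and 1.79 with the inhibitor, against 1.94 and 1.36 in unloaded muscle, and fell 3.32-fold (log2 change -1.73 ± 0.22, adjusted p = 0.0433 by limma). The array reports the gene and not a mature arm. The RefSeq mature sequence listed for it (GRCm38.p6, chr12:109727347-109727367, plus strand) is shown with its seed, bases 2 to 8, in capitals.

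mmu-miR-487b-5p: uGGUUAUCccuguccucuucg

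Of the rises not yet given, Wnt4, a secreted Wnt ligand, was at 3.82 and 3.29 without and at 5.03 and 5.19 with the inhibitor, and rose 2.95-fold (1.56 ± 0.21, adjusted p = 0.0498 by limma). Ctxn3, a small membrane protein, was at 5.79 and 6.12 without and at 7.19 and 7.35 with it, and rose 2.50-fold (1.32 ± 0.18, adjusted p = 0.0498 by limma). In both genes overload alone lay below unloaded muscle, which had 4.60 and 4.20 for Wnt4 and 7.13 and 6.97 for Ctxn3. The next genes by p did not pass the test. Apol11b was at 2.14 and 2.03 without and at 6.26 and 4.78 with the inhibitor (adjusted p = 0.0587), and the stefin Stfa2l1 at 0.72 and 1.19 without and 4.31 and 3.91 with it (adjusted p = 0.0642, both by limma). Scn3b, a sodium channel subunit, differed by 1.02, Prxl2a by 0.94, Fetub by 1.68 and Trim10 by 0.92, with adjusted p between 0.0719 and 0.0919 by limma.

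**Figure D4:**
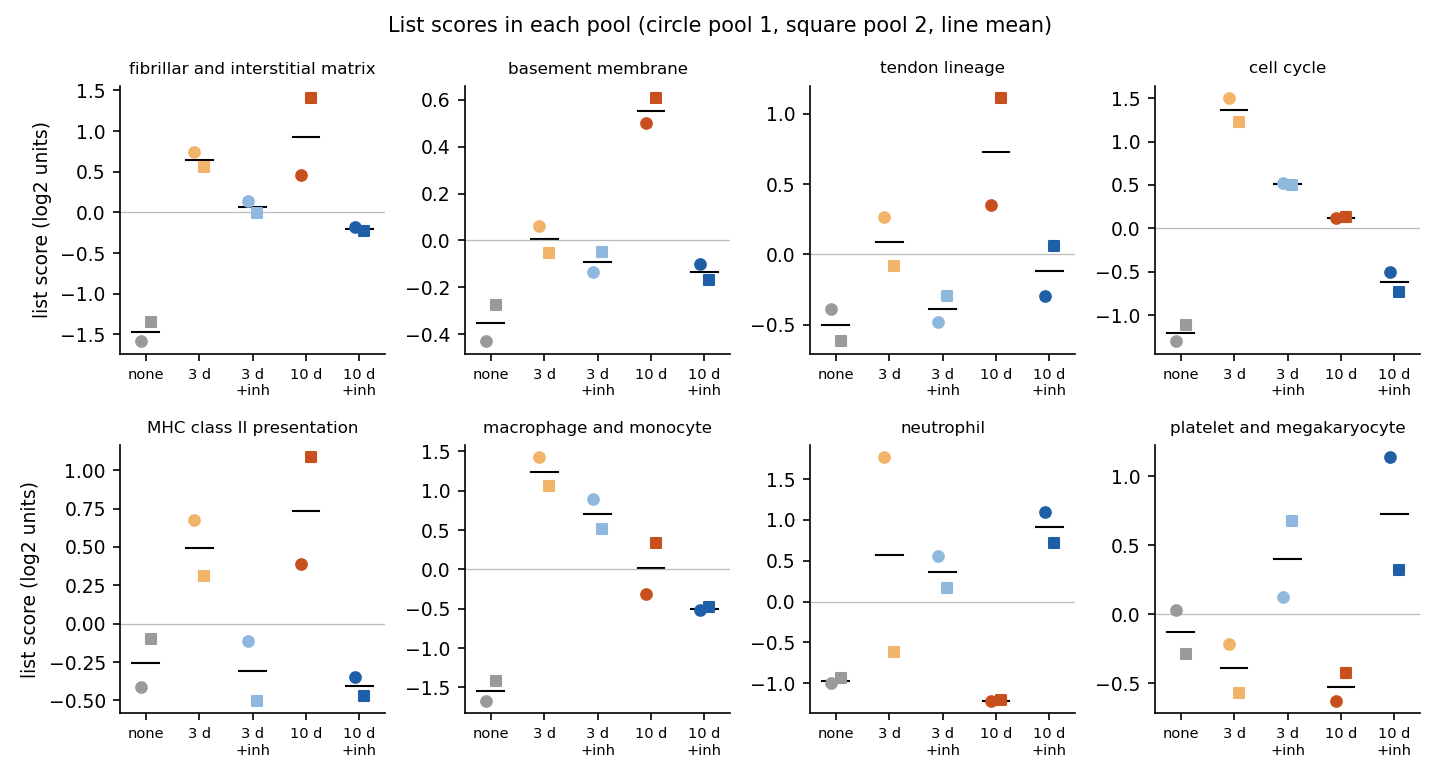
Scores of 8 gene lists in every pool (log2 units, vertical axes differ between panels): the median of the members' values after centring each gene on the 10 arrays, by group, with circles for pool 1, squares for pool 2 and a line at the mean. Pool 2 of 10 d overload is the highest for interstitial matrix (1.40), tendon lineage (1.11) and class II (1.08), and both 10 d inhibitor pools lie below both 10 d overload pools in the first 6 panels and above them in the neutrophil and platelet panels.

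Among the fibre, junction and dystrophin complex lists no gene passed the adjusted test. None of the 14 fast fibre genes had an unadjusted p under 0.05, and their median was 0.01. Of 10 slow fibre genes, 4 lay lower by that measure, with a median of -0.28 (7 of 10 negative). Without inhibitor pool 1 there were 3, and the median was -0.15 with 5 negative. Myh7, the slow myosin heavy chain, was at 7.08 and 6.37 without and at 4.68 and 5.48 with the inhibitor (-1.65 ± 0.41, adjusted p = 0.206 by limma). Atp2a2, the slow-type calcium pump, Myl3, a slow myosin light chain, and Tnnt1, slow troponin T, differed by -0.58, -1.04 and -0.45. Of 15 genes of embryonic and regenerating fibres, 4 lay higher and 2 lower at an unadjusted p under 0.05. Sln, sarcolipin, an inhibitor of the calcium pump, was at 8.52 and 8.89 without and at 10.60 and 10.10 with the inhibitor, against 2.43 and 3.75 in unloaded muscle (1.64 ± 0.38, adjusted p = 0.185 by limma). Chrna1, a subunit of the muscle acetylcholine receptor, was at 7.12 and 7.40 without and at 8.22 and 7.93 with the inhibitor (0.81 ± 0.18, adjusted p = 0.176 by limma). Of 12 measured neuromuscular junction genes (13 listed), 5 lay higher and none lower, with a median of 0.27, and these included Chrnb1 (0.38), Rapsn (0.40) and Musk (0.31). In the dystrophin complex list, 4 of 12 measured members lay higher, with Sntb1 at 0.78 and Dysf at 0.42, and Lama2, which is also a basement membrane gene, lay lower. These counts were small and moved with the pools. The junction list had 1 higher without either 10 d inhibitor pool and 3 without any one of the other overloaded pools, the dystrophin list had 1 higher without pool 2 of overload and 2 without either inhibitor pool, and the embryonic list had 2 higher without inhibitor pool 1. The embryonic list had 6 lower without pool 1 of overload and 0 without pool 2.

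Satellite cell and myoblast genes were mixed. Of 17 members, 4 lay lower and 3 higher at an unadjusted p under 0.05. Myog, the factor of differentiating myoblasts, and Mymk, the fusion protein myomaker, differed by -0.92 and -0.83, and Cdh15, the cadherin of satellite cells, by 0.80. Without pool 2 of overload 0 were lower, without pool 1 of overload 0 were higher, and without either inhibitor pool 1 was higher (limma). Inhibitor pool 2 also moved the lower count, to 2, and either 3 d inhibitor pool the higher count, to 1. Of 15 measured IGF system genes, 5 lay lower, among them Igf2 (-0.56) and the binding proteins Igfbp3 (-0.67) and Igfbp6 (-0.72), and 2 without pool 2 of overload or pool 2 of the inhibitor. Of 23 measured TGF-beta and BMP genes, Tgfbi (-0.92), Fstl1 (-0.95) and Bmp1 (-0.88) lay lower and the median was -0.03, with 7 lower without pool 1 of overload. Metabolic lists lay near the middle of all genes. Oxidative phosphorylation had 1 of 26 measured members at an unadjusted p under 0.05, and fatty acid oxidation (20 members) and glycolysis (14) had none, with medians of -0.05, -0.02 and -0.03. The Akt and mTOR list and the atrophy and autophagy list had medians of 0.16 and 0.07, with 1 of 17 and 0 of 17 members at an unadjusted p under 0.05 (limma).

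The same contrast at 3 d, made with 4 other pools, gave 0 calls by limma, with 2011 genes at an unadjusted p under 0.05 (9.07%). All 18 genes that fell at 10 d were also lower at 3 d, 11 of them at an unadjusted p under 0.05. Of all genes, 4.48% were lower by that measure. Both contrasts share each gene's estimate of spread, and genes were called at 10 d partly by it. The 4.48% is therefore not a matched background. The 3 d differences were -1.43 for Aspm, -1.36 for H2-Ab1, -1.17 for Top2a, -1.16 for Prnd and -1.01 for Prc1, and they were -0.24 for Lamb1 and -0.17 for Adamts3. Of the 5 rises, 4 had the same sign at 3 d, with Ctxn3 at 1.67 and Wnt4 at 0.62, and Csf3r was at -0.02. Over all genes the inhibitor differences at both times correlated at r = 0.255, a description across genes, which are not replicates. No gene was called for a difference between the inhibitor effects at 10 d and 3 d (limma, smallest adjusted p 0.516), with 1434 genes at an unadjusted p under 0.05 (6.47%). The number was 14, all higher at 10 d, without pool 2 of 3 d overload and 2 without pool 1 of 10 d overload. Csf3r (1.26) and Pf4 (1.73) had adjusted p of 0.516 for this difference by limma. Pf4 had the largest such difference of the platelet list. That list had a median of 0.68 at 3 d, with 7 members positive and 1 negative. There, 4 lay higher and 1 lower at an unadjusted p under 0.05, against 4.59% and 4.48% of all genes. By list, the medians at 10 d and 3 d were 2.11 and 0.01 for neutrophil genes, -0.69 and -0.15 for basement membrane and -1.14 and -0.50 for interstitial matrix, and -0.835 and -0.89 for the cell cycle. The neutrophil median at 3 d rests on overload pools that differed, with list scores of 1.77 in pool 1 and -0.62 in pool 2. The 3 d inhibitor pools lay between them, at 0.56 and 0.16, so the 0.01 does not show an absence of change.

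**Figure D5:**
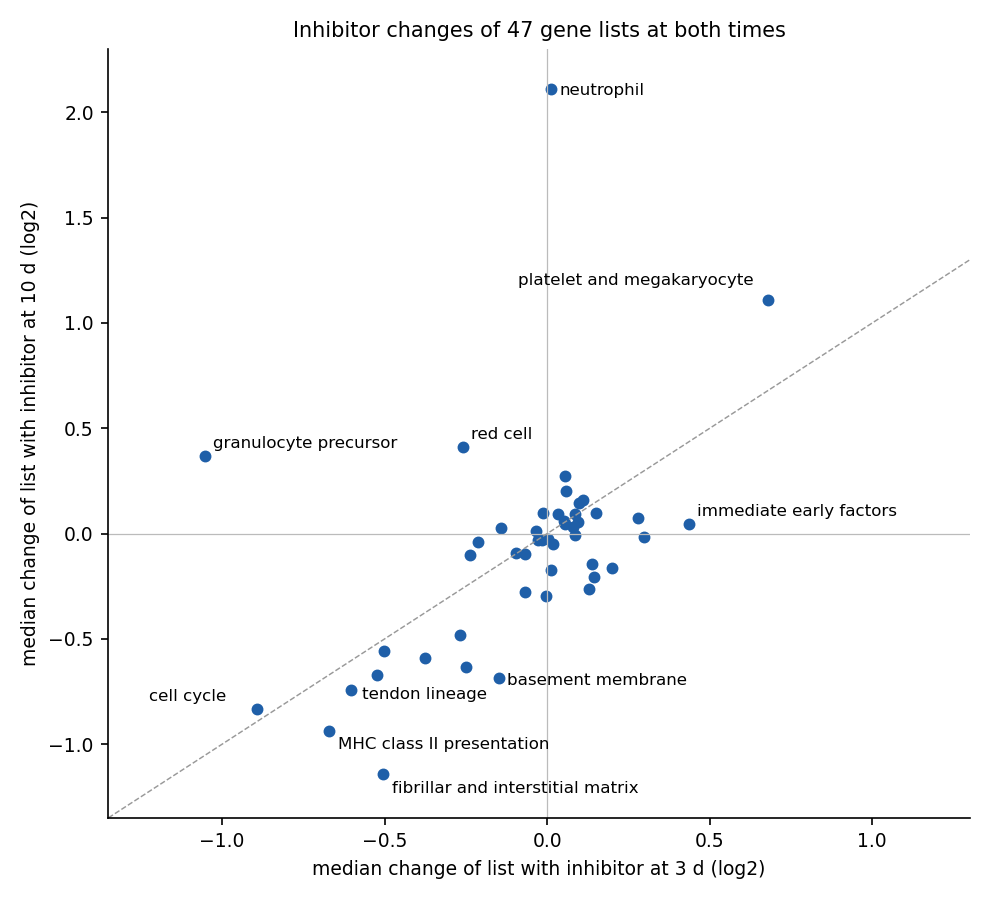
Median log2 difference with the inhibitor of 47 gene lists at 3 d (horizontal axis) and 10 d (vertical axis); the dashed line marks equal medians. The cell cycle list lies close to the line, the basement membrane and interstitial matrix lists lie below it, and the neutrophil list stands at 0.01 and 2.11. The neutrophil median at 3 d rests on overload pools that differed from each other.

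Genes that overload alone raised at 3 d were described at 10 d as well. The 3 d overload contrast shares no pool with the inhibitor contrast at 10 d, but both share each gene's estimate of spread. The shares by p below are therefore not independent of how the genes were chosen. Of the 2066 genes that rose at 3 d of overload (limma, 9.31%), 66.7% lay lower with the inhibitor at 10 d, against 48.4% of all genes, and 487 (23.6%) did so at an unadjusted p under 0.05, against 6.25%. Their median was -0.17. The 1815 genes that fell at 3 d (8.18%) had a median of 0.04. Of them, 6.56% lay higher at an unadjusted p under 0.05. That share was 6.1% for the genes that rose at 3 d and 4.36% for all genes. Of the 993 genes lower with the inhibitor at 3 d at an unadjusted p under 0.05, 284 (28.6%) were lower at 10 d by the same measure. Against unloaded muscle, overload for 10 d gave 1138 calls (5.13%, 865 higher or 3.90%) and overload with inhibitor gave 345 (1.56%, 250 higher or 1.13%) by limma. Both counts share pools with the inhibitor contrast and are set side by side only.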

How the data were processed

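RNA was extracted with Qiazol, per the labels' protocols, which give conflicting labelling kits for every array. The authors deposited log2 expression values of 41345 probe sets. Per the submitters' processing notes, RMA, oligo and limma were used, with no versions given. RMA quantile-normalizes arrays and compresses changes of dim genes. The 23521 probe sets with exactly 1 symbol gave 22180 genes, each by its brightest probe set, with no filter. Groups followed the labels. limma 3.58.1 (R 4.3.3) fitted 1 mean per group over all 10 arrays (5 residual and 3.58 prior degrees of freedom, prior SD 0.181), and every adjusted p is Benjamini-Hochberg over all genes. These steps were tested on simulated data. The number of arrays limits the precision, and values after ± are standard errors.

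Named were the 12 largest rises and falls among called genes, filled by p and leaving out microRNA and unnamed genes, up to 4 members per list by p, and the 6 PDGF genes. Others were named after their values were seen. The members and all 47 lists were chosen with earlier results of these data known. Some lists share members. Promoters and microRNAs came from RefSeq (GRCm38.p6), matched by symbol. The alternatives were other scaling, filters, probe set rules, sample subsets, variance settings, thresholds and single pools left out.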

Additional observations from a re-analysis of the deposited data

Results flagged for a closer look

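Of the 47 gene lists, 5 had both inhibitor pools apart from both pools without it at 10 d and at 3 d, in opposite directions. In each case the difference between the times was not tested. With so few pools such separation is common. At 10 d the groups did not overlap for 21.6% of all genes (higher) and 19.5% (lower). How many of the 47 lists would do so at both times by chance was not tested. The list scores differed by -0.16 at 10 d and 0.17 at 3 d for pericytes and smooth muscle, by -0.086 and 0.13 for endothelial cells, and by -0.22 and 0.11 for angiogenic factors. They differed by 0.43 and -0.27 for red cell genes, and by -0.10 and 0.14 for Schwann cells and myelin. For Schwann cells and myelin the median of the members' log2 changes was 0.09 at both times, so the score and the median differ in sign at 10 d.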

How the results depend on the processing

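The 23 calls became 14 after a second quantile normalization, 48 without dim genes, 3 (all higher) with only the 10 d pools, 2 with only overloaded pools, 161 (53 higher, 108 lower) with an intensity trend and robust prior, and 47 at an adjusted p under 0.1. With single pools left out the count ranged from 0 to 180. A common median gave 17 (7 higher, 10 lower, against 5 and 18). The causes were not tested. With all pools of a group kept, all 23 kept their direction and an unadjusted p under 0.05 in every setting. Settings that change only a filter, the variance or the other groups leave the 10 d differences as they are. The 23 were also selected by p in the same data, so this outcome says little about their stability. With single pools left out their direction could not change, since their 10 d groups do not overlap. The difference between the effects at 10 d and 3 d gave 0 calls in all settings other than single pools left out, where it gave 0 to 14. Of the PDGF genes, 2 changed sign. Pdgfc ranged from -0.85 to 0.18 with single pools left out (0.18 without pool 2 of 10 d overload), and Pdgfa was 0.018 under a common median. Medians of lists near 0 also changed sign with single pools left out, among them TGF-beta and BMP (-0.26 to 0.089), oxidative phosphorylation (-0.14 to 0.027), fatty acid oxidation (-0.13 to 0.13), fast fibre (-0.031 to 0.030), embryonic fibre (-0.012 to 0.23), immediate early factors (-0.21 to 0.099), interferon response (-0.25 to 0.11) and cytokines (-0.098 to 0.11). No paired analysis was possible because the groups share no replicate numbers in the labels. Signals near the bottom of the scale limit what dim genes can show.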

Other observations

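Genes expressed from 1 parental copy, many of which restrain or promote growth before birth, were grouped after their values were seen, so the group has no test. All 20 measured members of 23 listed were lower with the inhibitor at 10 d, 11 of them at an unadjusted p under 0.05, with a median of -0.67. The count was 4 and the median -0.40 without pool 2 of 10 d overload, and 6 and -0.55 without inhibitor pool 1. Mest, also called Peg1, was at 7.65 and 9.01 without and at 6.38 and 6.57 with the inhibitor, against 4.72 and 4.33 in unloaded muscle. Cdkn1c, an inhibitor of cyclin-dependent kinases, was at 4.96 and 5.69 without and at 4.02 and 4.09 with it. Mir323, which lies in the same region as Mir487b, was at 3.35 and 4.13 without and at 1.92 and 1.97 with it. At 3 d the median of the group was -0.15, and no member had an unadjusted p under 0.05.

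The 17824 probe sets without a single symbol gave 0 calls with limma (smallest adjusted p 0.0598) and 1379 at an unadjusted p under 0.05.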
